A study of Sus scrofa with 6 samples.

Results

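TCONS_00077941 was a lncRNA on chromosome 5 of the pig that was far more abundant in white than in black skin of Bama pigs and had no other row of the lncRNA table within 100 kb. The set described here is that lncRNA and every other row of the lncRNA table with any part within 100 kb of it, and this rule found 1 row, TCONS_00077941 itself, of the 7566 lncRNAs of the table. It spans 19928706 to 19931878 of chromosome 5 (Sscrofa11.1, plus strand), 3173 bp from first to last position, and the table lists it as not annotated before. These are the start and end of its row. The study also gives it a wider locus, which takes in LOC110260671 and nearly all of TESPA1, genes described below, so distances from the row are larger than from that locus. The row was chosen with its level and its rise in white skin known, so both are given as a description with no test.

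LncRNAs are transcripts that pass a filter against coding potential, and many are made in only a few cell types. In skin, glands, hair follicles, fat, dermis and epidermis each have their own transcripts, so a value from a whole piece of skin adds up all of them. Fewer cells of a type and less RNA per cell cannot be told apart in such samples. In the human genome, the stretch between PPP1R1A and TESPA1, the named coding genes on either side of TCONS_00077941 in the pig, holds DCD, MUCL1 and LACRT, which encode small proteins secreted by sweat, breast and tear glands.

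The samples came from 3 female Bama pigs aged 2 years, each sampled on the back for white skin and on the buttock for black skin, to a depth of 8 mm (n = 3 per skin). Replicate 1, 2 or 3 of the white and of the black skin is the same pig. The Bama pig is a miniature breed with black and white areas of coat, and no animal was treated. Skin color and body site cannot be told apart in this design. Values are FPKM (mapped fragments scaled to transcript length and to the total of the sample), which allow levels of different genes to be compared per length, and the number of reads behind a single value is not in the tables used.

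In white skin, TCONS_00077941 had 896 FPKM in pig 1, 2037 in pig 2 and 13479 in pig 3. In black skin of the same pigs, it had 4.16, 92.7 and 3.77 FPKM. Every white sample lay above every black sample, and the lowest white value was 9.67 times the highest black value. White skin had a mean of 5471 ± 6958 FPKM (SD, n = 3) and black skin a mean of 33.5 ± 51.2 FPKM (SD, n = 3). In each skin the SD exceeded the mean, since 1 pig stood far above the other 2. The pig that stood out was not the same in the 2 skins: it was pig 3 in white skin and pig 2 in black skin.

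**Figure D1:**
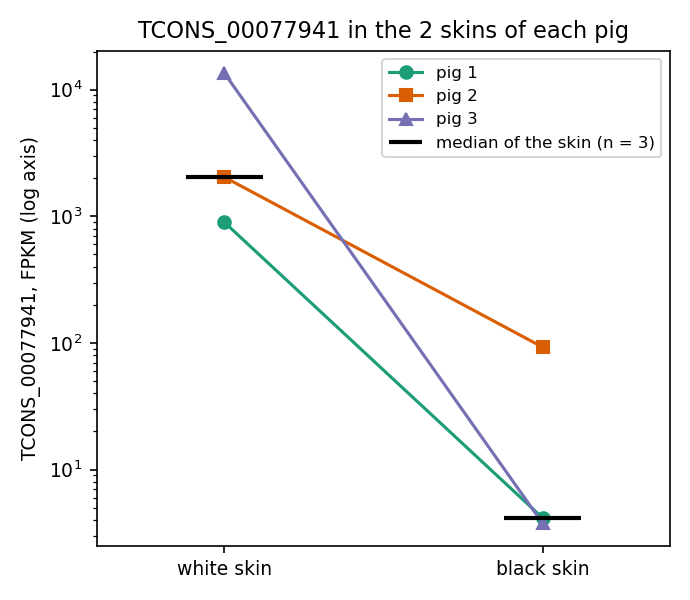
FPKM of TCONS_00077941 on a log axis in white and black skin, with the 2 samples of each pig joined by a line and a bar at the median of each skin (n = 3). All lines fall from white to black skin, from 896, 2037 and 13479 FPKM to 4.16, 92.7 and 3.77 FPKM in pigs 1, 2 and 3.

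Within a pig, the white level was 215.6 times the black level in pig 1, 22.0 times in pig 2 and 3574 times in pig 3. On log2(FPKM + 0.1), the scale used for lncRNAs, TCONS_00077941 averaged 11.51 in white skin (SD 2.01, n = 3) and 3.53 in black skin (SD 2.61, n = 3). The log2 fold change, white minus black, was 7.98, the highest of the 7566 lncRNAs, and 0 of the 14900 mRNAs, on log2(FPKM + 0.5), had a higher one. With each sample left out in turn it lay between 6.87 and 9.49. Groups that do not overlap, with white skin above, were found for 6.87% of all lncRNAs and 9.62% of all mRNAs.

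The level in white skin was high for any transcript. TCONS_00077941 ranked 1 among the lncRNAs in each of the 3 white samples. In black skin it ranked 190 in pig 1, 15 in pig 2 and 171 in pig 3. Against the mRNAs, 96 had a higher FPKM than TCONS_00077941 in white skin of pig 1, 23 in pig 2 and 2 in pig 3. In black skin, 8627, 493 and 9594 mRNAs did so in pigs 1, 2 and 3. Its black level in pigs 1 and 3 was thus below that of most mRNAs, while in pig 2 it exceeded 96.69% of them.

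TCONS_00077941 held 10.6%, 17.3% and 58.4% of the lncRNA FPKM of white skin in pigs 1, 2 and 3, against 0.0513%, 0.963% and 0.0467% in black skin. The lncRNA FPKM of a white sample summed to 14441 ± 7683 (SD, n = 3), and those of a black sample to 8601 ± 890 (SD, n = 3). The 2 skins overlapped, and no test is given since the sum holds the transcript chosen for its rise. Without TCONS_00077941, the sums were 8970 ± 1252 (SD, n = 3) and 8567 ± 839 (SD, n = 3), and the 2 skins overlapped again (p = 0.8, two-sided exact permutation test). The smallest p that 3 samples against 3 allow is 0.1. Set against lncRNAs and mRNAs together, its share in white skin was 0.189%, 0.435% and 2.57% of all FPKM.

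**Figure D2:**
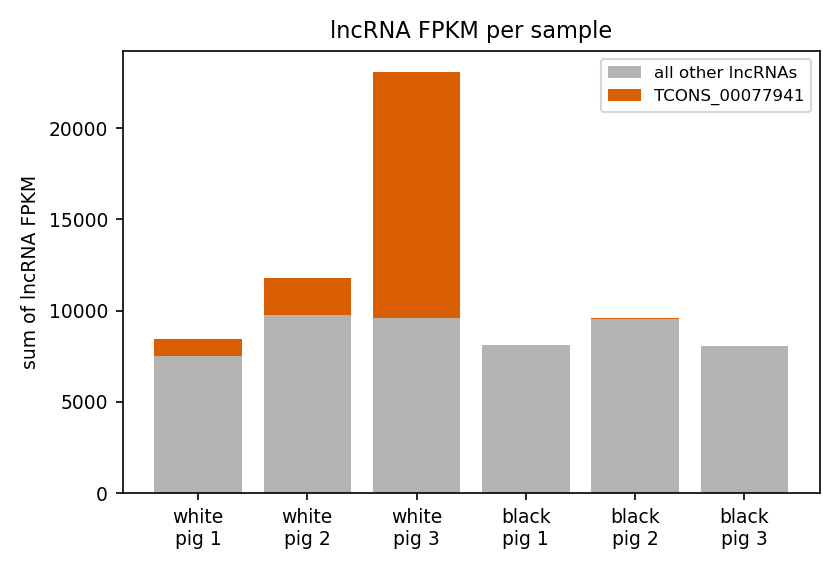
Sum of lncRNA FPKM in each of the 6 samples, split into TCONS_00077941 (orange) and all other lncRNAs (grey). The grey parts lie between 7527 and 9767 in all 6 samples, and the orange part reaches 13479 in white skin of pig 3.

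A spread of this size between the white samples was rare among mRNAs with at least 10 FPKM in each of them, a limit far below the level of TCONS_00077941. The highest white value of TCONS_00077941 was 15.0 times the lowest. Among the 3854 mRNAs with at least 10 FPKM in all white samples, 3 had a ratio as high, and these are named here after their values were seen: NQO1, PHEROC and CPHL1. Only 40 lncRNAs reached that level, and 2 of them had a ratio as high, TCONS_00077941 included. The other was TCONS_00116379, with 18.6, 537 and 66.2 FPKM in white skin of pigs 1, 2 and 3. In that lncRNA pig 2 was highest in both skins, unlike TCONS_00077941. In black skin the highest value of TCONS_00077941 was 24.6 times the lowest, and 29 of the 11623 mRNAs with at least 1 FPKM in all black samples had a ratio as high. So did 5 of the 413 lncRNAs at that level, TCONS_00077941 included. The highest white sample was that of pig 3 and the highest black sample that of pig 2 for 9.72% of the 12554 mRNAs with a mean of at least 1 FPKM, and 0.709% also had all white samples above all black ones.

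No neighbouring lncRNA was found that could share the rise. The lncRNA row nearest to TCONS_00077941 lay 444.1 kb away, and the nearest on the other side lay 1245 kb away. For comparison, 25.4% of the lncRNAs had no other row within 100 kb and 7.64% had none within 400 kb. The median distance to the nearest row was 10.7 kb. With the distance widened to 500 kb, 2 lncRNAs came in, TCONS_00080872 and TCONS_00080870, both on the minus strand. They overlap each other, so how reads were split between them is uncertain.

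White skin of pigs 1, 2 and 3 had 0, 0 and 0.0790 FPKM of TCONS_00080872 in the table, against 0.373, 0.609 and 0.315 FPKM in black skin. Its white values were the lower ones, opposite to TCONS_00077941, and did not overlap them, as for 5.31% of all lncRNAs, but it did not pass the test (limma log2 fold change -2.09, standard error (SE) 1.08, Benjamini-Hochberg adjusted p = 0.664). TCONS_00080870 had 0.337, 0.0843 and 0.112 FPKM in white and 0.134, 0.0376 and 0 FPKM in black skin of pigs 1, 2 and 3, and the skins overlapped (limma log2 fold change 0.80, SE 1.10, Benjamini-Hochberg adjusted p = 0.728). Neither passed at p below 0.05 before adjustment. Over all lncRNAs limma called 1.33%, 1.08% higher and 0.251% lower in white skin, at an adjusted p under 0.05 and a log2 fold change over 1 in size. Of the other 392 lncRNAs of chromosome 5, 5 were called higher and 1 lower in white skin.

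The RefSeq annotation of the same build places a lncRNA gene, LOC100523787, from 19921830 to 19931748 of chromosome 5. It covers 3043 of the 3173 bp spanned by TCONS_00077941 and starts 6.88 kb before it, so the row listed as not annotated before falls on a gene that RefSeq names. Its strand is not in the RefSeq table used. Within 100 kb, RefSeq lists 2 protein-coding genes, the unnamed LOC110260671 at 14.2 kb and TESPA1, a gene of T cell receptor signaling, at 34.7 kb. Neither was found by symbol in the mRNA table, where 82.1% of the rows could be given a symbol and which keeps mRNAs above 0.5 FPKM in at least 1 sample. The test planned for mRNAs within 100 kb therefore had no gene to report.

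**Figure D3:**
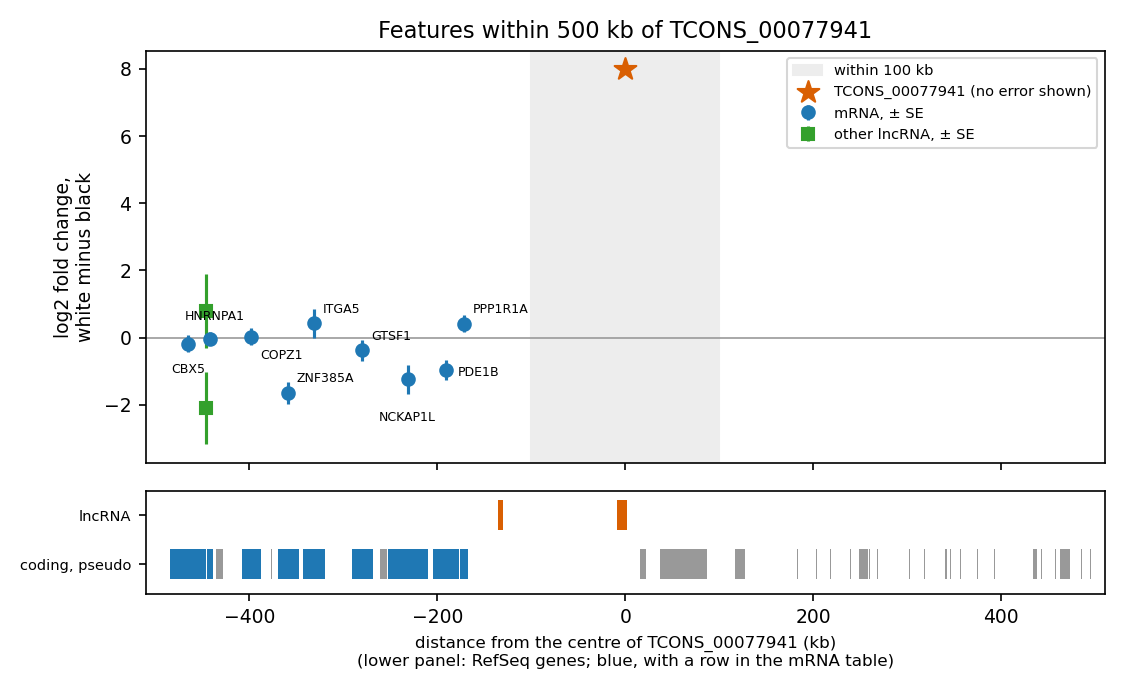
Log2 fold change (white minus black, ± standard error) of features within 500 kb of TCONS_00077941 against their distance from its centre in kb, above the RefSeq genes of the same stretch. TCONS_00077941 (star, 7.98, no error shown) is the only feature for which a row was found in the grey window of 100 kb. The mRNAs were placed by symbol, so those without a symbol are not shown. The 9 mRNAs (circles) lie between -1.64 and 0.42.

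Coding genes further out gave no call in the direction of TCONS_00077941. Of the 12 RefSeq coding genes that lie within 500 kb on the left, 9 had a row in the mRNA table by symbol, against 0 of 20 on the right. Most of those on the right carry only a LOC identifier, which a match by symbol can hardly find. Whether they have a row, and so their level in skin, is not known. The distance of 500 kb was chosen after the data were seen. Of the 9 mRNAs, 1 was called, ZNF385A, where limma called 6.24% of all mRNAs, 2.62% higher and 3.62% lower in white skin. No mRNA of the 9 was called higher in white skin.

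ZNF385A, a zinc finger protein gene 345.5 kb away, had 1.90, 1.02 and 1.60 FPKM in white skin of pigs 1, 2 and 3 and 8.05, 4.92 and 4.53 FPKM in black skin. All white samples were lower than all black samples, the reverse of TCONS_00077941 (limma log2 fold change -1.64, SE 0.32, Benjamini-Hochberg adjusted p = 0.0305). Groups that do not overlap with white skin below were common, at 25.7% of all mRNAs. The call for ZNF385A was lost with quantile normalization (limma, Benjamini-Hochberg adjusted p = 0.0781), which moved the median log2 fold change of all mRNAs from -0.31 to -0.03. It was also lost with any 1 of the 6 samples left out, with the log2 fold change between -1.79 and -1.40.

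NCKAP1L, which encodes an actin regulator of blood cells, and PDE1B, which encodes an enzyme that breaks down cyclic nucleotides, also had all white values below all black ones. NCKAP1L had 1.19, 0.382 and 1.79 FPKM in white skin of pigs 1, 2 and 3 and 3.07, 1.97 and 4.56 FPKM in black skin (limma log2 fold change -1.24, Benjamini-Hochberg adjusted p = 0.112). With the pig as a block it passed the threshold (limma, Benjamini-Hochberg adjusted p = 0.0387). PDE1B had 1.66, 1.34 and 1.67 FPKM in white and 2.56, 3.63 and 4.58 FPKM in black skin (limma log2 fold change -0.96, Benjamini-Hochberg adjusted p = 0.0819).

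PPP1R1A, an inhibitor of protein phosphatase and the nearest of the 9 at 165.4 kb, had 15.9, 23.7 and 14.9 FPKM in white skin of pigs 1, 2 and 3 and 15.9, 12.9 and 11.4 FPKM in black skin. The skins overlapped, and the white samples did not spread as those of TCONS_00077941 did (limma log2 fold change 0.41, Benjamini-Hochberg adjusted p = 0.320). The other 5 did not pass the test and their skins overlapped: CBX5, HNRNPA1 and COPZ1, which encode a heterochromatin protein, an RNA-binding protein and a vesicle coat subunit, ITGA5, a fibronectin receptor subunit, and GTSF1. Their log2 fold changes ran from -0.38 for GTSF1 to 0.42 for ITGA5. Under alternatives given at the end, the sign changed for CBX5, HNRNPA1, COPZ1 and ITGA5.

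The patterns most like that of TCONS_00077941 were looked for among all mRNAs. Over the 6 samples on the log2 scale, the 5 highest Pearson r to TCONS_00077941 among 12554 mRNAs were those of TDO2 (0.997), SLC25A26 (0.990), CPHL1 (0.989), CD200 (0.989) and SMIM19 (0.987). These are descriptions over 6 samples, picked as the highest of many, and the samples share the split into 2 skins. An r of at least 0.9 was reached by 200 of the mRNAs (1.59%) and an r of -0.9 or below by 406. After each skin was centred on its own mean, the r of the 5 lay between 0.939 and 0.986, but none of them was among the 5 highest by that r.

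TDO2, which encodes the enzyme that opens the breakdown of tryptophan toward kynurenine, had 12.8, 31.6 and 118 FPKM in white skin of pigs 1, 2 and 3. In black skin it had 0.0820, 2.94 and 0.0333 FPKM, so it ordered all 6 samples as TCONS_00077941 did. CPHL1, named for its likeness to the copper proteins ceruloplasmin and hephaestin, had 59.2, 138 and 999.5 FPKM in white skin and 0.114, 14.7 and 1.21 FPKM in black skin. In both, white skin of pig 3 was highest of all samples and pig 2 was highest among the black samples.

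The other 3 had their highest white value in pig 3 and their highest black value in pig 2 as well, but moved little. SLC25A26, a mitochondrial carrier of S-adenosylmethionine, had 5.81, 6.07 and 7.29 FPKM in white and 3.69, 5.22 and 3.91 FPKM in black skin of pigs 1, 2 and 3. CD200, a membrane protein that restrains myeloid cells, ran from 14.4 to 16.3 FPKM in white and from 9.17 to 11.9 FPKM in black skin. SMIM19, a small membrane protein, ran from 8.10 to 9.91 FPKM and from 6.42 to 7.79 FPKM. Their log2 fold changes were 0.54, 0.57 and 0.35, where that of TCONS_00077941 was 7.98.

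Because r ignores the size of a change, mRNAs were also ranked by the distance between their log2 values and those of TCONS_00077941, each centred over the 6 samples, a measure chosen after the data were seen. The 5 nearest were CPHL1 (distance 2.38), PHEROC (3.44), TDO2 (3.82), SCGB1D1 (4.51) and ENSSSCG00000035033 (4.53), for which no symbol was found. PHEROC and SCGB1D1, the latter also known as PHEROA, encode the C and A subunits of pheromaxein, a secreted protein of the secretoglobin family that carries steroid pheromones in boar saliva. The 2 genes are neighbours on chromosome 2 (Sscrofa11.1), from 9376019 to 9379433 and from 9387546 to 9391171.

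PHEROC had 110 FPKM in white skin of pig 1, 103 in pig 2 and 1648 in pig 3, against 1.50, 33.9 and 3.01 in black skin. SCGB1D1 had 57.3, 80.1 and 624 FPKM in white skin and 3.22, 48.2 and 1.35 FPKM in black skin of pigs 1, 2 and 3. In both genes white skin of pig 3 stood far above the other white samples, and black skin of pig 2 above the other black samples. ENSSSCG00000035033 had 302, 366 and 730 FPKM in white and 5.54, 227 and 2.40 FPKM in black skin, with the same order of all 6 samples as TCONS_00077941. These genes were picked for their likeness, so no test of their difference between the skins is given.

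**Figure D4:**
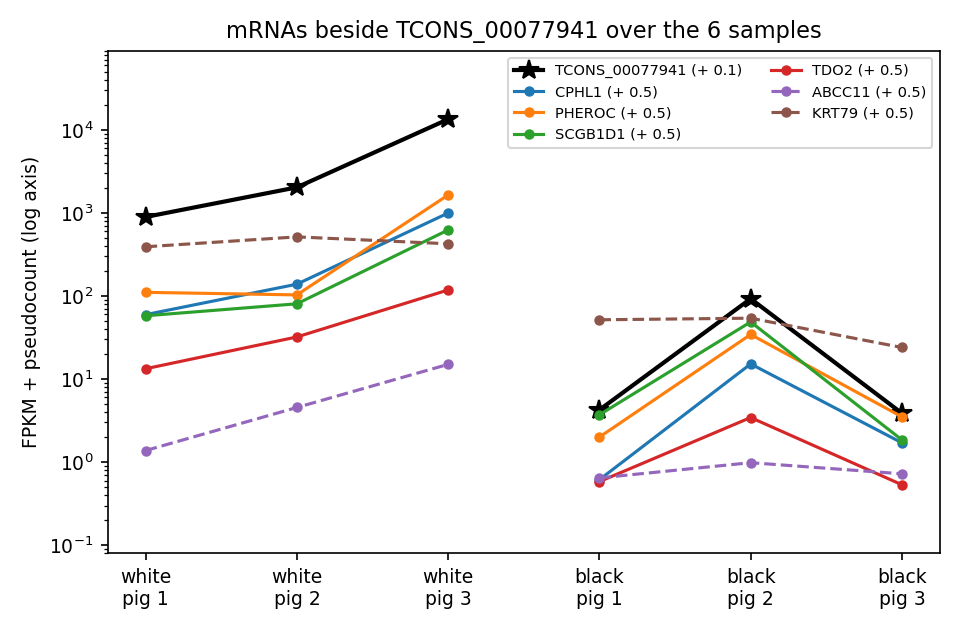
FPKM plus pseudocount on a log axis in the 3 white and 3 black samples for TCONS_00077941 (black stars), for CPHL1, PHEROC, SCGB1D1 and TDO2, chosen by likeness (solid lines), and for the gland markers ABCC11 and KRT79 (dashed lines), with lines joining samples of 1 skin only to guide the eye. All but KRT79 peak in pig 3 in white skin and in pig 2 in black skin, while KRT79 stays between 391 and 515 FPKM in white skin. ABCC11 and KRT79 were picked from the longer gland lists of the text. For the sweat gland markers not shown, r to TCONS_00077941 ran from -0.66 (KRT8) to 0.90 (FOXA1).

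Among 983 other lncRNAs with a mean of at least 1 FPKM, the 5 highest r were those of TCONS_00037810 (0.972), TCONS_00073706 (0.969), TCONS_00048139 (0.964), TCONS_00032950 (0.963) and TCONS_00009251 (0.961), and none of the 5 lies on chromosome 5. TCONS_00032950 was the most abundant of them, with 19.1, 17.8 and 24.6 FPKM in white and 1.16, 7.07 and 0.634 FPKM in black skin of pigs 1, 2 and 3. In white skin of pig 3, the 5 had between 1.19 and 4.07 times their value in pig 1, against 15.0 times for TCONS_00077941. Their r fell to between 0.818 and 0.855 once each skin was centred, and none of them was among the 5 highest by that r.

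Marker genes of skin cell types were looked up among the mRNAs, to set the makeup of the samples beside TCONS_00077941. Of 53 marker genes with a row, 19 were called, 6 higher and 13 lower in white skin, and 29 with the pig as a block. With 1 sample left out, the count fell to between 4, without white skin of pig 2, and 12. Adjusted p-values are over all mRNAs, of which limma called 6.24%, 2.62% higher and 3.62% lower in white skin. With the pig as a block, 1439 of the 14900 mRNAs were called. Counts below at p below 0.05 before adjustment have no such share beside them, since it was not taken. Such values were common: with 1 sample left out, limma gave them for 2696 to 4351 of the 14900 mRNAs, in either direction.

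Sweat gland markers gave values for 6 of 15 genes. DCD, MUCL1, LACRT, PIP, SCGB1D2, SCGB2A2, AZGP1, FOXI1 and KRT19, most of the defining ones, were not found by symbol in the table. None of the 6 was called higher in white skin by limma, 2 were higher at p below 0.05 before adjustment, and KRT8, a keratin of simple epithelia, was called lower (limma, Benjamini-Hochberg adjusted p = 0.0469), a call lost with quantile normalization and with any 1 sample but white skin of pig 3 left out. ABCC11, the transporter of apocrine sweat glands, had 0.877, 4.05 and 14.5 FPKM in white skin of pigs 1, 2 and 3 and 0.145, 0.484 and 0.223 FPKM in black skin. It put the 3 white samples in the order of TCONS_00077941, with the highest at 16.6 times the lowest, and the skins did not overlap (limma log2 fold change 2.56, Benjamini-Hochberg adjusted p = 0.0779). It passed with the pig as a block (limma, Benjamini-Hochberg adjusted p = 0.0457) and without white skin of pig 1 (limma, Benjamini-Hochberg adjusted p = 0.0417).

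FOXA1, a transcription factor of glandular epithelium, had 1.14, 2.45 and 2.61 FPKM in white and 0.0870, 1.46 and 0.506 FPKM in black skin of pigs 1, 2 and 3, and the skins overlapped (limma log2 fold change 1.23, Benjamini-Hochberg adjusted p = 0.141). AQP5, a water channel, had 1.39, 2.79 and 10.4 FPKM in white and 1.97, 4.23 and 2.46 FPKM in black skin (limma log2 fold change 0.32, Benjamini-Hochberg adjusted p = 0.738). KRT7 and KRT18, keratins of glands, overlapped between the skins too. Pig 3 had the highest white value for all 6 genes, as it had for 8 of 8 adipocyte and 3 of 3 epidermis genes. In 4 of the 6, KRT8 and FOXA1 being the others, white skin of pig 3 exceeded the other white samples by more than 2-fold. The summed level of the 6, most of it KRT7 and KRT8, ran from 24.96 to 107 FPKM in white skin and from 32.4 to 97.0 FPKM in black skin. The part of sweat glands in the level of TCONS_00077941 was not tested.

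Sebaceous gland markers varied among themselves within white skin. Pig 3 had the highest white value for 7 of the 11, against 44.0% of the 12554 mRNAs, pig 2 for 3 and pig 1 for 1. Of the 11 genes, 4 were called higher in white skin (KRT79, SCD, FA2H and PLIN2) and 0 lower. FA2H was not called with any 1 sample left out, SCD and PLIN2 were not called without white skin of pig 2, and KRT79 was called throughout. Lower at p below 0.05 before adjustment were 2, MC5R and THRSP. All white values lay above all black ones for the 4 called genes, and below them for MC5R and SOAT1. Among all mRNAs, these shares were 9.62% above and 25.7% below. THRSP and ELOVL3 had log2 fold changes of -1.47 and -2.07, and their skins overlapped. KRT79, a keratin of sebaceous ducts, had 391, 515 and 425 FPKM in white and 51.3, 53.6 and 23.5 FPKM in black skin of pigs 1, 2 and 3 (limma log2 fold change 3.44, SE 0.33, Benjamini-Hochberg adjusted p = 0.00736). SCD, which makes unsaturated fatty acids, had 7552, 9980 and 4946 FPKM in white and 1314, 824 and 1320 FPKM in black skin (limma log2 fold change 2.67, Benjamini-Hochberg adjusted p = 0.0121). The highest white value was 1.32 times the lowest for KRT79 and 2.02 times for SCD, and pig 3 was lowest for SCD, where it was highest for TCONS_00077941. FADS2, a desaturase, had 363 FPKM in white skin of pig 3 and between 2.74 and 9.60 FPKM in the other 5 samples. The summed level of the 11 was 6026 to 10643 FPKM in white and 1029 to 1573 FPKM in black skin, most of it SCD in every sample. The part of sebaceous glands in the level of TCONS_00077941 was not tested.

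**Figure D5:**
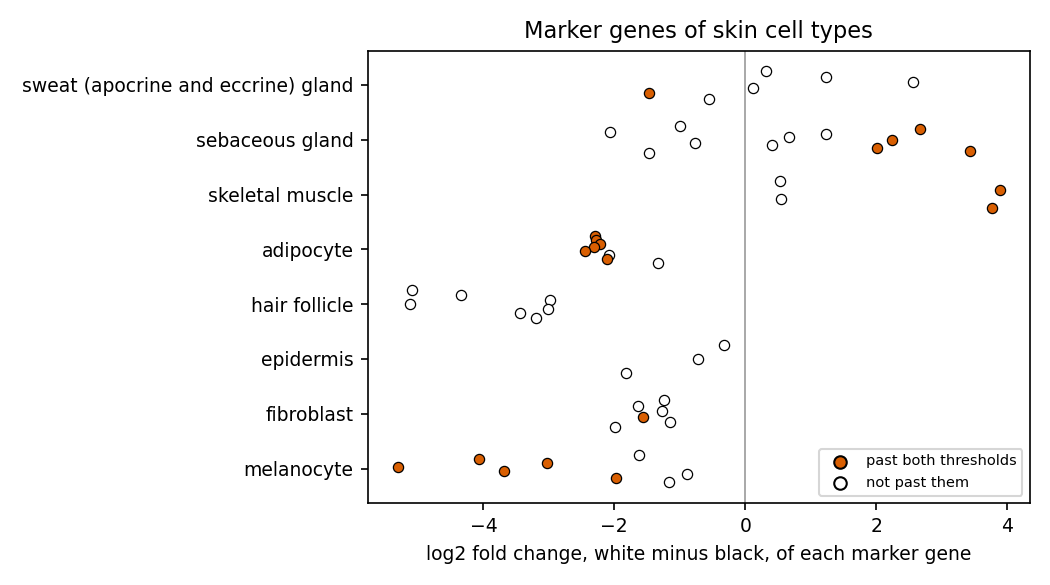
Log2 fold change (white minus black) of each marker gene with a row in the mRNA table, by cell type, with genes past both thresholds filled. The 4 filled sebaceous and 2 filled muscle genes lie right of 0, and the filled adipocyte, fibroblast and melanocyte genes lie left of it.

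Among the other lists, calls were found for muscle, fat, melanocyte and fibroblast genes. Of 4 skeletal muscle genes, CKM and DES were called higher in white skin, with log2 fold changes of 3.89 and 3.77. ACTA1, the skeletal muscle actin, had at most 1.77 FPKM in any sample and TNNC2 at most 1.10 FPKM, and neither was called. Of the 10 genes of the list, 6 were not found by symbol. DES had 917, 976 and 1052 FPKM in white and 40.2, 68.1 and 134 FPKM in black skin of pigs 1, 2 and 3, close to even within white skin. Of 8 adipocyte genes 6 were called lower in white skin, 8 with the pig as a block, among them CIDEC, a lipid droplet protein (log2 fold change -2.44), whose call was lost with any 1 white sample left out.

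Of 8 melanocyte genes 5 were called lower, and MLANA, a melanosome protein, had 0, 0 and 0.0816 FPKM in white skin of pigs 1, 2 and 3 against 10.5, 3.84 and 5.97 FPKM in black skin. Of 6 fibroblast genes, DCN, which encodes a collagen-binding proteoglycan, was called lower in white skin, a call lost with any 1 sample left out, and 3 were called with the pig as a block. Of 7 hair follicle and 3 epidermis genes 0 were called by limma, where 5 hair follicle genes and 0 epidermis genes were lower at p below 0.05 before adjustment. With the pig as a block, 4 hair follicle genes were called lower. The part of these cell types in the level of TCONS_00077941 was not tested.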

How the data were processed

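RNA-seq of poly(A) RNA from strand-specific libraries was available for 6 skin samples, 3 white and 3 black. The deposited FPKM values were calculated by the authors with StringTie, for mRNAs and for assembled lncRNAs that had passed a coding potential filter. The methods name TopHat and Sscrofa11.1 with Ensembl annotation, while the submitters' processing notes list HISAT2 2.0.4 and StringTie 1.3.3. The authors kept mRNAs above 0.5 FPKM and lncRNAs above 0.1 FPKM in at least 1 sample. The tables carry no read counts per feature, so counting error could not be given. Read totals per sample are given by the study and were not analysed here. A very abundant transcript takes up part of the total by which all values of a sample are divided.

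Both tables were fitted whole with limma 3.58.1 in R 4.3.3 (trend option, no pig term, as the study compared its skins) on log2(FPKM + 0.1) for lncRNAs and log2(FPKM + 0.5) for mRNAs, a scale that understates changes of low values. A feature was called where its adjusted p lay under 0.05 and its log2 fold change exceeded 1 in size. The tables pair the 2 samples of a pig, and their deviations from the skin means correlated with r of 0.204 to 0.360 across mRNAs and 0.101 to 0.148 across lncRNAs. A further fit had pig as block. Single values were compared with exact permutation tests (Python 3.11.15, SciPy 1.17.1).

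Symbols came from a table that pairs Ensembl identifiers with names and covered 12236 of 14900 mRNAs (82.1%). Gene positions came from RefSeq (Sscrofa11.1), matched by symbol. Genes were named by position, by the 5 highest r to TCONS_00077941 with a mean of at least 1 FPKM, or by membership of a marker list. Others were picked once values were known, which the text says of each. The set and the lists were chosen with earlier results of these data known. The alternatives were other pseudocounts, filters on mean FPKM, the pig as a block, quantile normalization, windows of 50 and 500 kb, and leaving out each sample. No sequence is printed, since no genome was used here.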

Additional observations from a re-analysis of the deposited data

How the results depend on the processing

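The log2 fold change of TCONS_00077941 lay between 6.87 and 9.49 with 1 sample left out. That it kept its sign under all 12 alternatives says little. The row was chosen for its rise, and all its white values lay above its black values. The filter and the pig as a block cannot change its value of 7.98. The number of lncRNAs called, 101, was 31 with a pseudocount of 0.01, 18 with a filter at a mean of 0.5 FPKM, 243 with pig as block, and 0 to 5 with 1 sample left out, where 407 to 578 had an unadjusted p under 0.05 in limma. The number of mRNAs called, 930, was 1439 with the pig as a block and 35 to 847 with 1 sample left out. The share of the mRNA calls higher in white skin was 42.0%, against 69.0% with quantile normalization (478 higher, 215 lower). Of the marker genes 19 were called, which became 29 under the replicate block (pig) and 4 to 12 with 1 sample left out. Within 50 or 100 kb no lncRNA or mRNA could be tested, and at 500 kb 1 mRNA was called. The mean share of white skin, 28.8% of the lncRNA FPKM and 13.9% to 37.8% with 1 white sample left out, was 1.06% of lncRNA and mRNA FPKM together. The median r of the 5 most alike lncRNAs, 0.964, was 0.843 after centring each skin. The sign changed for CBX5 with quantile normalization (0.13) and for COPZ1 with FPKM divided by the sum of all other features, an alternative added after the data were seen (-0.071). With 1 sample left out, the log2 fold change ran from -0.10 to 0.037 for HNRNPA1, from -0.17 to 0.25 for COPZ1, from -0.044 to 0.93 for ITGA5, from -0.39 to 0.88 for AQP5, from -0.85 to 0.78 for KRT7 and from -0.99 to 2.41 for FADS2. The cause was not tested. The pig as a block changed the call of 2 of the genes given by name with a test, NCKAP1L and ABCC11.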

Other observations

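Next in distance to TCONS_00077941 after the 5 mRNAs given above stood SULT1C4, ECHDC1, GLYATL2, PECR and ENSSSCG00000028695, in a ranking added after the data were seen. They fall into kinds that differ within white skin. SULT1C4, a sulfotransferase, had 5.37, 19.5 and 205 FPKM in white skin of pigs 1, 2 and 3, and 0.242, 4.59 and 0.524 FPKM in black skin. GLYATL2, a glycine acyltransferase, had 4.45, 14.8 and 651 FPKM in white skin and was listed at 0, 0 and 0.291 FPKM in black skin. Both had pig 3 far above pig 1 in white skin, as TCONS_00077941 did. ECHDC1, an enzyme that clears side products of fatty acid synthesis, had 4028, 4001 and 3239 FPKM in white and 114, 96.3 and 19.0 FPKM in black skin. PECR, a peroxisomal reductase of fatty acid chains, had 931, 1173 and 488 FPKM in white and 19.2, 19.8 and 3.82 FPKM in black skin. In these 2, pig 3 was the lowest white sample. After each skin was centred, r to TCONS_00077941 was 0.915 for SULT1C4, 0.562 for GLYATL2, 0.279 for ECHDC1 and 0.142 for PECR, each over 6 samples.

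NQO1, a quinone reductase, shared the wide spread between white samples. It had 28.1, 17.6 and 302 FPKM in white skin of pigs 1, 2 and 3 and 16.8, 15.4 and 19.6 FPKM in black skin, so that it was higher in white skin in each pig while the skins overlapped.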
